A study of Mus musculus with 16 samples.

Results

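Gpd2 and Tppp are 2 of the 55385 genes in the deposited tables and 2 of the 17222 genes whose counts were high enough to test. They were chosen because their levels were among those lowered most by the knockdown of Dnmt3a1, beside Dnmt3a itself, so their knockdown differences are given as values with no test. RNA came from primary hippocampal cultures of newborn C57BL/6N mice, infected on day in vitro 4 with a recombinant adeno-associated virus that carried either a control hairpin (shControl, here Control-shRNA) or a hairpin against Dnmt3a1 (shDnmt3a1). The latter is called Dnmt3a1-shRNA2 in the methods of the study. The U6 promoter drove the hairpins. In these constructs GFP, the infection marker, was driven by the chicken β-actin promoter, which is not restricted to neurons. For its injections into mice, the study chose the serotype of the virus for its tropism for neurons. Which cells of the cultures were infected was not measured in these libraries. Each of these 2 virus groups was harvested either in baseline or after 4 h of 50 µM bicuculline, a GABA-A receptor antagonist that makes the network fire in bursts. The 4 groups held 4 libraries each, from separate neuronal preparations. All 4 groups were infected and expressed a hairpin, and the knockdown rested on a single shRNA sequence, so an effect of losing Dnmt3a1 and an effect of that sequence cannot be told apart here.

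Gpd2 encodes the mitochondrial glycerol 3-phosphate dehydrogenase. It sits in the inner mitochondrial membrane, oxidises glycerol 3-phosphate made in the cytosol by Gpd1 or Gpd1l, and passes the electrons to ubiquinone, which completes the glycerol phosphate shuttle. Tppp encodes the tubulin polymerization promoting protein, which binds tubulin, bundles microtubules and is best known from myelinating oligodendrocytes. Gpd2 (ENSMUSG00000026827.12) lies on the plus strand at chr2:57237635-57370719 of GRCm38 and has 7 annotated transcripts. Tppp (ENSMUSG00000021573.15) lies on the plus strand at chr13:74009407-74035753 and has 2.

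The sequences that follow are shown because a hairpin can act on transcripts that resemble its target in part. The target of Dnmt3a1-shRNA2 is 25 bases long and crosses the junction of exons 2 and 3 of the Dnmt3a transcript Dnmt3a-201, within the coding sequence, so that on the genome it spans chr12:3835244-3849642. It is present in 4 of the 18 annotated Dnmt3a transcripts and in 0 other genes of GENCODE release M21. The longest stretch that Gpd2 shares with it is 10 bases, at chr2:57367369-57367378 in the coding part of exon 18 of Gpd2-202. The capitals mark this stretch in the target and in Gpd2.
Dnmt3a1-shRNA2 target: gggaggatgatcGAAAGGAAGGaga
Gpd2, coding sequence: gagcgcagttcaGAAAGGAAGGgtc
The 3′ UTR of Gpd2 holds the first 8 bases of that stretch at chr2:57367623-57367630 and its first 7 at chr2:57369823-57369829. The 3′ UTR of Tppp holds the same 8 bases at chr13:74035337-74035344, and the coding part of exon 2 of Tppp-201 holds the 7 bases at chr13:74021342-74021348. The 3′ UTR of Tppp also shares 8 bases elsewhere, not shown here. These are bases 1 to 8 of the target at chr13:74034967-74034974 and bases 14 to 21 at chr13:74035308-74035315. In the windows that follow the capitals mark the shared bases, and the lower-case bases are those around them.
Gpd2, 3′ UTR, upstream: aacaaaatcaaaGAAAGGAAaggga
Gpd2, 3′ UTR, downstream: taagcaaagaggGAAAGGAcacagg
Tppp, 3′ UTR: caacttaaacttGAAAGGAAtaata
Tppp, coding sequence: ccagggcaacagGAAAGGAgatgca
These matches are descriptions of sequence and not sites of action. Of the 14481 protein-coding genes tested, 9.76% shared at least 10 bases in a row with the target, as Gpd2 did, and 71.3% shared at least 8, the longest stretch in Tppp. When the whole 25-base window was aligned without gaps at its longest match, Gpd2 was identical to the target at 14 bases and Tppp at 12 in the 3′ UTR window shown.

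The libraries were of even depth, with 28912697 to 29586355 estimated counts assigned to genes in each. The share of counts from mitochondrial genes was 2.80% to 4.75% in control and 2.73% to 5.99% in knockdown libraries in baseline, and 3.34% to 5.86% and 3.58% to 6.60% with bicuculline. It was higher in the knockdown library in 7 of the 8 same-numbered pairs and lowest for replicate number 3 in each group, and its part in the levels of Gpd2 and Tppp was not tested. The targeted gene, Dnmt3a, was measured at 293 to 338 CPM (read counts relative to library size, scaled between libraries by TMM) in the 8 Control-shRNA libraries and at 39.4 to 48.0 CPM in the 8 knockdown libraries. Its knockdown mean was 14.2% of the control mean in baseline and 13.9% with bicuculline.

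Gpd2 was lower in all 8 knockdown libraries than in all 8 control libraries. In baseline the 4 Control-shRNA libraries held 136, 125, 134 and 137 CPM of Gpd2, and the 4 Dnmt3a1-shRNA2 libraries held 39.3, 34.7, 41.7 and 40.0 CPM. With bicuculline the Control-shRNA libraries held 124, 127, 126 and 121 CPM, and the Dnmt3a1-shRNA2 libraries 31.7, 32.0, 35.1 and 33.3 CPM. The groups of different shRNA lay far apart, the lowest control library being 2.99-fold above the highest knockdown library in baseline and 3.45-fold above it with bicuculline. The knockdown mean was 29.3% of the control mean in baseline and 26.5% with bicuculline. On the log2 scale the difference came to −1.77 in baseline (SE 0.06, n = 4 per group) and to −1.91 with bicuculline (SE 0.06, n = 4 per group). In TPM, a unit that takes account of transcript length, mean Gpd2 was 50.9 ± 3.27 in control and 14.0 ± 2.14 in knockdown cultures in baseline (SD, n = 4). With bicuculline these means were 41.3 ± 2.47 and 10.6 ± 1.50 TPM (SD, n = 4).

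Tppp was also lower in all 8 knockdown libraries than in all 8 control libraries, but it varied more between preparations. In baseline the Control-shRNA libraries held 202, 163, 182 and 193 CPM of Tppp, and the Dnmt3a1-shRNA2 libraries 84.9, 55.2, 66.2 and 75.4 CPM. With bicuculline the Control-shRNA libraries held 149, 127, 137 and 148 CPM, and the Dnmt3a1-shRNA2 libraries 41.8, 36.8, 36.0 and 39.5 CPM. The 4 groups fell into 4 separate ranges, of which control baseline was the highest and knockdown with bicuculline the lowest. The lowest control library was 1.92-fold above the highest knockdown library in baseline and 3.03-fold above it with bicuculline. The knockdown mean was 38.1% of the control mean in baseline and 27.5% with bicuculline, which is −1.39 (SE 0.11) and −1.86 (SE 0.11) on the log2 scale (n = 4 per group). Mean Tppp was 86.8 ± 4.66 and 33.4 ± 6.35 TPM in control and knockdown cultures in baseline, and 55.3 ± 4.77 and 16.1 ± 1.26 TPM with bicuculline (SD, n = 4).

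**Figure D1:**
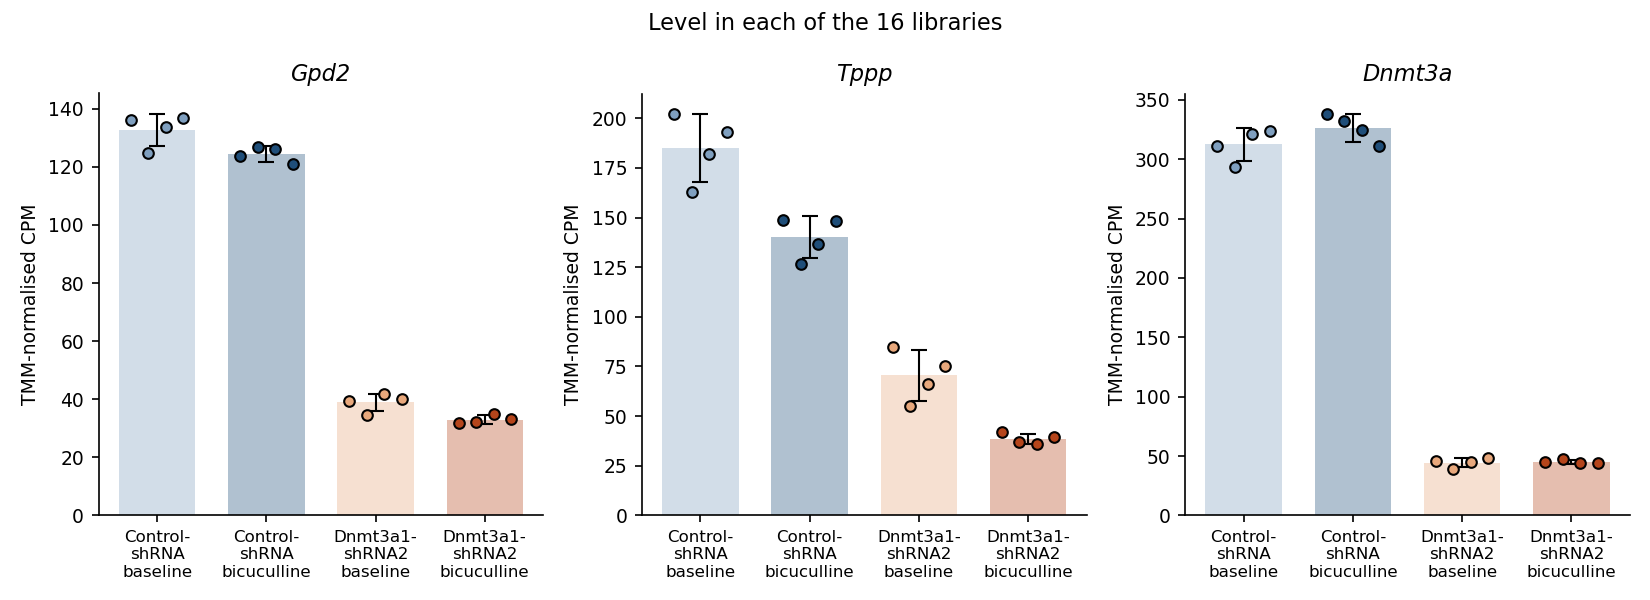
TMM-normalised counts (CPM) of Gpd2, Tppp and the targeted gene Dnmt3a (y axis) in each of the 4 groups (x axis). Points are libraries in the order of their replicate number, bars are group means and whiskers are 1 SD (n = 4); Gpd2 sits between 121 and 137 CPM in the control libraries and between 31.7 and 41.7 in the knockdown libraries, and Tppp steps down over 4 separate ranges.

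As background, a gene was called when its adjusted p in edgeR's quasi-likelihood test was under 0.05 and its log2 fold change was over 0.5 in either direction. By this rule 4.07% of all tested genes were called lower after knockdown in baseline and 3.9% with bicuculline, while 1.76% and 2% were called higher, and in 10.3% and 11.4% of them all 4 knockdown libraries lay below all 4 control libraries. Gpd2 and Tppp were chosen for their knockdown decrease, so these shares are only the setting for their values. Called genes whose groups did not overlap and whose mean reached 1 CPM were ranked by the size of the difference, and Gpd2 was number 2 and Tppp number 3 of 522 with bicuculline, behind Dnmt3a at −2.85. Just outside the choice stood Itfg1, number 5, at −1.82, so no step separated Tppp from the genes that followed. In baseline, where 565 genes met the same conditions, Gpd2 was number 5 and Tppp number 20.

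The bicuculline response of the 2 genes was not used to choose them, although all 4 groups also stood in the comparisons that did. Choice by low levels in the knockdown groups can shift the responses, so their p-values are not free of the choice. Tppp fell with bicuculline in the knockdown cultures, where its mean went from 70.4 ± 12.7 to 38.5 ± 2.65 CPM (SD, n = 4). This was a log2 fold change of −0.87 (SE 0.11) with an edgeR adjusted p of 3.36e-06, which ranged from 2.82e-12 to 0.000101 over the alternatives tried, and all 4 stimulated libraries lay below all 4 unstimulated ones. The exact two-sided permutation test gave p = 0.0286, the smallest value that 4 against 4 libraries allow. Of all tested genes, 13.2% were called lower in this comparison and 22.1% lay lower without overlap. In the control cultures mean Tppp went from 185 ± 17.1 to 140 ± 10.5 CPM (SD, n = 4), again without overlap (exact two-sided permutation test, p = 0.0286). The log2 fold change was −0.40 (SE 0.10, adjusted p = 0.00484 in edgeR, 1.67e-05 to 0.0198 over the alternatives), under the size required for a call. Without TMM scaling it was −0.56 and called, and in limma on log2(TPM + 1) it was −0.64 and called. These scalings also moved the median of all genes to −0.15 and −0.14. In this comparison 11.1% of tested genes were called lower, 21.4% lay lower without overlap, and 41.4% had an adjusted p under 0.05 whatever their size.

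The response of Gpd2 to bicuculline was not called. Its log2 fold change was −0.09 in control cultures (SE 0.06, adjusted p = 0.218 in edgeR, 0.00601 to 0.432 over the alternatives, interval of 2 SE from −0.21 to 0.02). In knockdown cultures it was −0.24 (SE 0.06, adjusted p = 0.00349, 0.000211 to 0.0286 over the alternatives), with groups that overlapped (exact two-sided permutation test, p = 0.0571) and a size under that required for a call. Without TMM scaling the 2 values were −0.25 and −0.38, on log2(TPM + 1) −0.29 and −0.37, and on log2(TPM + 0.1) −0.30 and −0.39, all with an adjusted p under 0.05 and under the size required. Adjusted p alone was under 0.05 for 46% of tested genes in the knockdown cultures. The targeted gene gave 0.06 (SE 0.06) and 0.03 (SE 0.06) in the same comparisons, neither called.

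The difference between the bicuculline responses of the 2 virus groups, which equals the difference between the 2 knockdown differences, was −0.47 for Tppp (SE 0.15, interval of 2 SE from −0.77 to −0.17) and −0.14 for Gpd2 (SE 0.08, interval from −0.31 to 0.02). It contains the comparisons that chose the genes and is given with no test. Over all 17222 genes, edgeR gave 0 with an adjusted p under 0.05 for this difference and 852 (4.95%) with an unadjusted p under 0.05. Limma with voom gave 0 and DESeq2 18 at an adjusted p under 0.05, and edgeR with a replicate block gave 3.

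**Figure D2:**
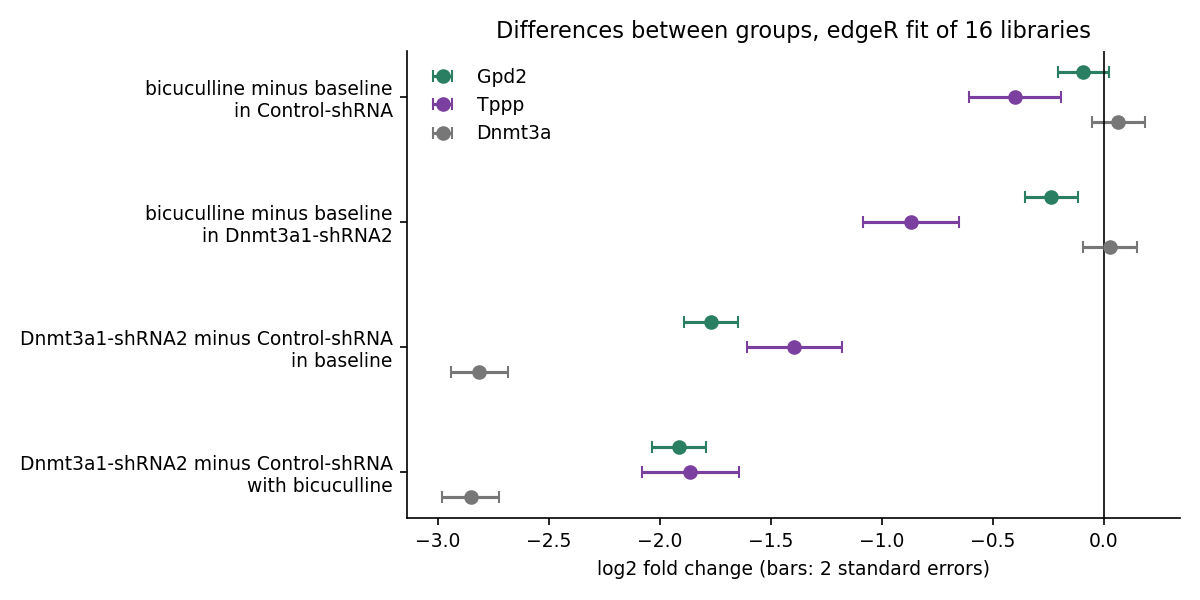
Log2 fold changes (x axis) of Gpd2, Tppp and Dnmt3a in the 4 comparisons (y axis), from 1 edgeR fit of the 16 libraries. Points are estimates and whiskers span 2 standard errors on each side; both knockdown differences lie between −1.39 and −1.91 for Gpd2 and Tppp, and among the bicuculline responses only that of Tppp in the knockdown cultures, at −0.87, passed both thresholds.

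The spread of Tppp within the groups followed the replicate number in the labels. Libraries numbered 1 and 4 lay above their group mean in all 4 groups, and libraries numbered 2 and 3 lay below it in all 4. The deviations were from −0.33 to 0.29 on the log2 scale, both in the baseline knockdown group. For Gpd2 they were from −0.16 to 0.10, and no number except 3 kept to the same side of the mean in all 4 groups. In the fit with a replicate block the knockdown differences of Tppp were −1.40 (SE 0.06) and −1.86 (SE 0.06), with smaller standard errors than without it.

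**Figure D3:**
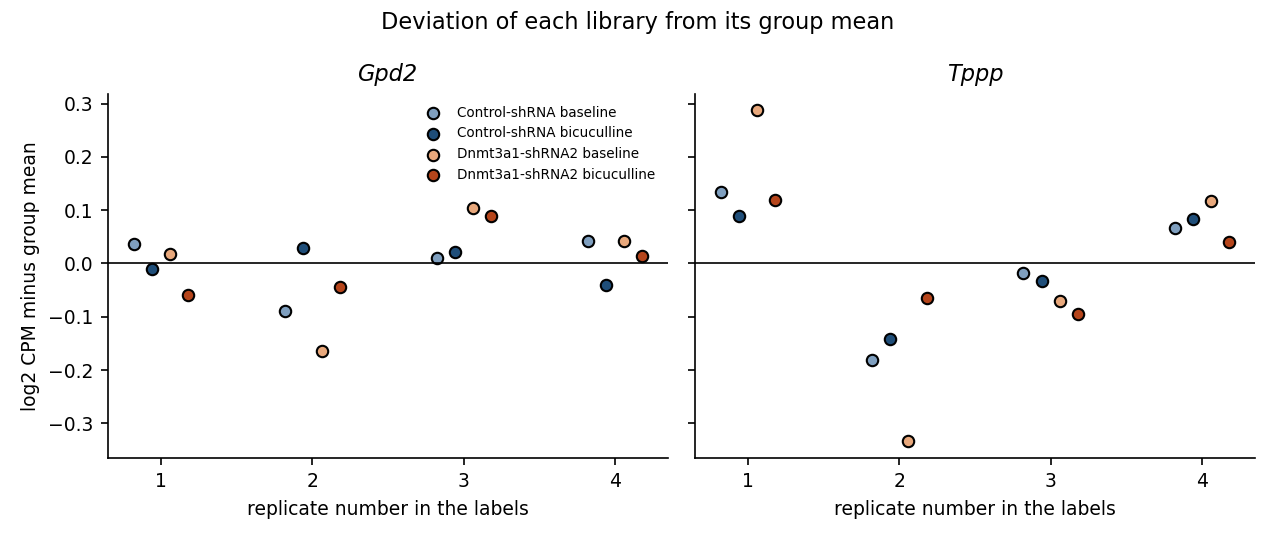
Log2 CPM of each library minus the mean of its group (y axis) against the replicate number in the labels (x axis) for Gpd2 and Tppp, with 1 point per library and colours for the 4 groups. For Tppp the libraries numbered 1 and 4 sit above 0 and those numbered 2 and 3 below 0 in every group, between −0.33 and 0.29.

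Of 14 other genes of glycerol 3-phosphate metabolism 13 were tested, and their knockdown differences were −0.93 to 0.48 in baseline, beside −1.77 for Gpd2. In baseline 1 was called lower and 0 higher, with a median log2 fold change of −0.04 against 0.01 over all genes, and with bicuculline 0 were called, with a median of −0.16 against −0.01. Counts of 1 and 0 are near the 4.07% and 3.9% of all genes called lower. The gene called lower was Slc37a1, a glucose 6-phosphate and phosphate exchanger related to bacterial glycerol 3-phosphate transporters, at −0.93 (SE 0.21, adjusted p = 0.00455), but its level was only 1.73 ± 0.589 TPM in control baseline (SD, n = 4). In limma on log2(TPM + 1) and log2(TPM + 0.1) it was −0.53 and −0.94 and no longer called. The cytosolic partners of Gpd2 in the shuttle were not called. Gpd1 was at 12.5 ± 1.69 TPM in control and 9.04 ± 2.62 TPM in knockdown baseline cultures (SD, n = 4), with a log2 fold change of −0.33 (SE 0.14, adjusted p = 0.121). Gpd1l, at the higher level of 70.8 ± 6.69 and 71.3 ± 7.74 TPM (SD, n = 4), gave 0.12 (SE 0.08, adjusted p = 0.321). Pgp, which hydrolyses glycerol 3-phosphate, had the highest level of the list, at 72.4 TPM in control baseline, and gave 0.10 in both knockdown comparisons.

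With bicuculline, other genes of this list moved while Gpd2 was not called. Gpat3, an acyltransferase that starts glycerolipid synthesis, rose by 0.91 in control and 1.30 in knockdown cultures on the log2 scale, from levels of 1.41 and 0.922 TPM. Aqp9, a glycerol channel, rose by 1.50 and 1.07 but stayed under 1 TPM in all groups, and its call in the knockdown cultures was lost without knockdown baseline replicate 4 (0.86) or knockdown bicuculline replicate 1 (0.88), and on log2(TPM + 1) neither call was made (0.39 and 0.37). Slc37a1 fell by 0.89 in control cultures, a call that was lost on log2(TPM + 1) (−0.42) and log2(TPM + 0.1) (−0.67). In knockdown cultures Gpam, a mitochondrial acyltransferase, fell by 0.68, and Slc37a4, the glucose 6-phosphate transporter of the endoplasmic reticulum, fell by 0.53. The call of Slc37a4 was lost without knockdown baseline replicate 4 (−0.49) or knockdown bicuculline replicate 2 (−0.49). The counts were 2 higher and 1 lower of 13 in control cultures and 2 higher and 2 lower in knockdown cultures, where 10.8% and 12.6% of all genes were called higher and 11.1% and 13.2% lower.

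The malate-aspartate shuttle carries reducing equivalents into mitochondria by another route. None of its 7 genes was called in any of the 4 comparisons by edgeR, and the median difference on knockdown was 0.03 in baseline and −0.06 with bicuculline. Mdh1, the cytosolic malate dehydrogenase and the highest of them, was at 673 TPM in control and 596 TPM in knockdown baseline cultures, with a log2 fold change of −0.11. The other dehydrogenases that pass electrons to ubiquinone, of which 8 of 9 were tested, held 0 called genes on knockdown in either condition, with medians of 0.09 and 0.04. On knockdown 1.76% and 2% of all genes were called higher and 4.07% and 3.9% lower, so a count of 0 is near the background. The succinate dehydrogenase subunits Sdha, Sdhb, Sdhc and Sdhd lay between −0.06 and 0.10 in both conditions. One gene of this list, Prodh, the proline dehydrogenase, rose by 0.61 with bicuculline in knockdown cultures, and that call was lost without any of 5 libraries (knockdown baseline replicates 1, 3 and 4, knockdown bicuculline replicates 2 and 4), with values from 0.45 to 0.55. It was also lost without TMM scaling (0.46), on log2(TPM + 1) (0.28) and log2(TPM + 0.1) (0.38), and in a fit of only the 2 groups compared (0.62).

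**Figure D4:**
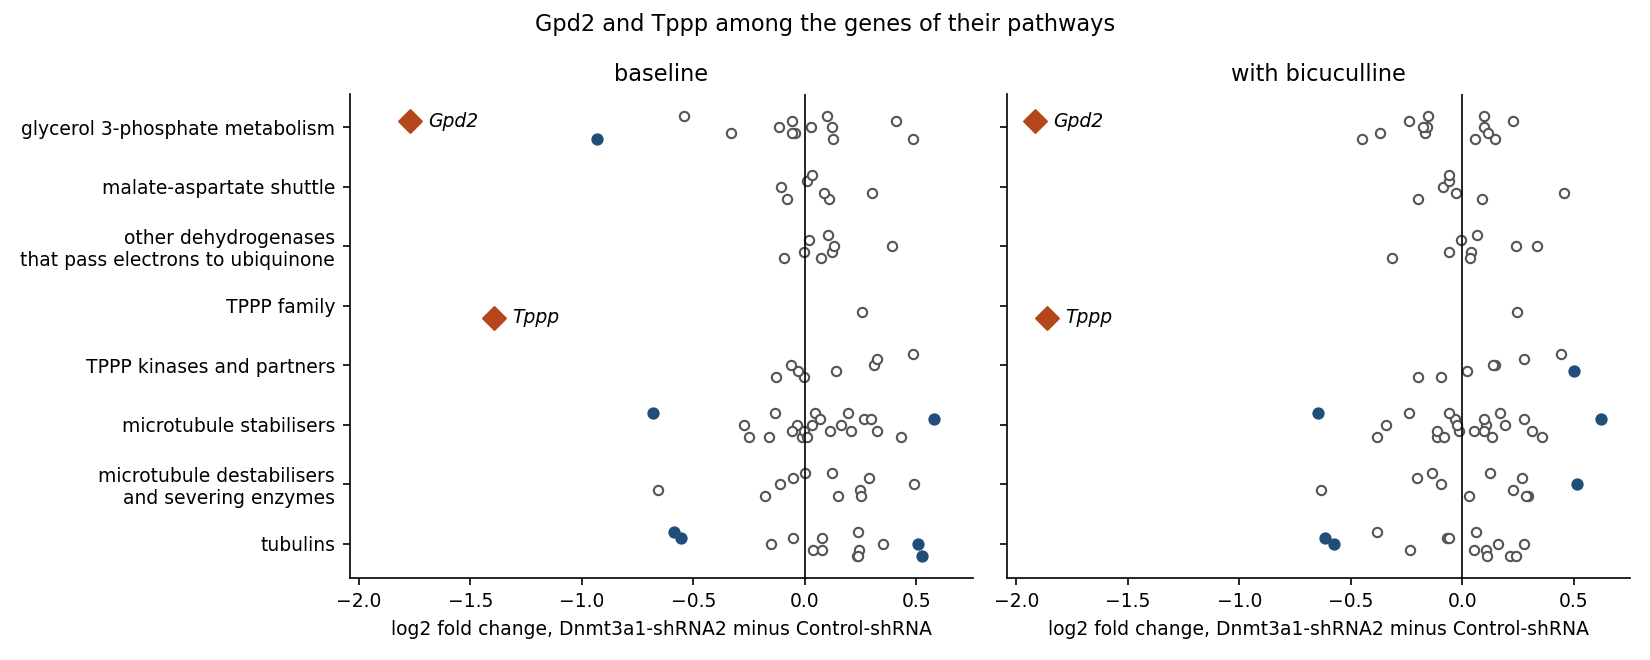
Log2 fold change of knockdown against control (x axis) for the tested genes of the 8 pathway lists (y axis), in baseline and with bicuculline. Diamonds are Gpd2 and Tppp, filled circles are other called genes and open circles are genes not called; the other genes lie between −0.93 and 0.62, to the right of the diamonds in each panel.

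Tppp has 2 paralogs. Tppp3 was expressed at 15.1 ± 2.31 TPM in control and 16.6 ± 4.24 TPM in knockdown baseline cultures (SD, n = 4) and was not called, at 0.26 in baseline (SE 0.23, adjusted p = 0.519) and 0.24 with bicuculline (SE 0.24, adjusted p = 0.532). Tppp2 was listed at 0 TPM in 3 of the 4 groups and was not tested. Of 8 kinases and partners of the protein, among them the kinases Limk1, Limk2 and Cdk5 and the deacetylase Hdac6, 0 were called on knockdown in baseline. Of all genes, 1.76% in baseline and 2% with bicuculline were called higher, and 4.07% and 3.9% lower. With bicuculline 1 of the 8 was called, Rock1, a kinase that acts on the actin cytoskeleton, higher by 0.50 (SE 0.11, adjusted p = 0.00339), at the very threshold of size. That call was lost without control bicuculline replicate 1 (0.46) or 2 (0.49) and without knockdown bicuculline replicate 1 (0.46), 2 (0.49) or 3 (0.49). Rock2, its paralog, rose with bicuculline by 0.91 in control and 1.11 in knockdown cultures.

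Of 22 microtubule stabilisers, 1 was called higher and 1 lower on knockdown in both conditions, the same genes each time. Of all genes, 1.76% in baseline and 2% with bicuculline were called higher, and 4.07% and 3.9% lower. Dcx, doublecortin, which marks young neurons and stabilises microtubules, was higher by 0.58 in baseline (SE 0.11, adjusted p = 0.00109) and by 0.62 with bicuculline (SE 0.11, adjusted p = 0.000576). Its baseline call was lost without knockdown baseline replicate 1 (0.50) or 4 (0.50), where it stood just under the threshold of size. Mapre2, an end-binding protein, was lower by −0.68 (SE 0.05, adjusted p = 1.00e-07) and −0.65 (SE 0.05, adjusted p = 1.60e-07), from 311 ± 18.3 to 199 ± 16.6 TPM in baseline (SD, n = 4). The medians of the list were 0.04 and 0.02. The highest member was Map2 at 727 TPM in control baseline, with 0.16 and 0.19. With bicuculline in knockdown cultures, Clasp1 (−0.57), Camsap3 (−0.69) and Ckap5 (−0.52) fell, while 0 of the list were called in control cultures. Of all genes, 13.2% were called lower and 12.6% higher in knockdown cultures, and 11.1% and 10.8% in control cultures. The call of Ckap5 was lost without knockdown baseline replicate 1 (−0.47) or 4 (−0.48) or knockdown bicuculline replicate 2 (−0.48). That a list was called in one virus group and not in the other does not show a difference between them, and 0 of its genes were called for the difference itself.

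Among 11 tested genes that destabilise or sever microtubules, 0 were called on knockdown in baseline and 1 with bicuculline. Of all genes, 1.76% in baseline and 2% with bicuculline were called higher, and 4.07% and 3.9% lower. The gene called was Stmn1, stathmin, higher by 0.51 (SE 0.08, adjusted p = 0.000307). Its baseline value was 0.49 (SE 0.08, adjusted p = 0.000465), just under the size required. The call was lost without control bicuculline replicate 1 (0.48) or knockdown bicuculline replicate 2 (0.48) or 4 (0.49). With bicuculline Stmn4 rose by 1.02 in control and 1.05 in knockdown cultures, and the severing enzyme Fignl1, at 0.728 TPM in control baseline, fell by 1.32 and 1.29. The call of Fignl1 in knockdown cultures was lost without knockdown baseline replicate 3 (−1.12) or knockdown bicuculline replicate 3 (−1.15) or 4 (−1.02), and on log2(TPM + 1) neither call was made (−0.41 and −0.19).

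All 14 tubulins were tested, and on knockdown in baseline 2 were called higher and 2 lower, where 1.76% and 4.07% of all genes were. Tubb3 (0.51) and Tubb5 (0.52), both abundant β-tubulins at 1235 and 1081 TPM in control baseline, were higher. Tuba8 (−0.59) and the γ-tubulin Tubg2 (−0.56) were lower. Each of these 4 calls was lost when single libraries were left out, with lowest absolute values of 0.44 for Tubb3 (without control baseline replicate 3 or knockdown baseline replicate 1 or 2), 0.48 for Tubb5 (without knockdown baseline replicate 1 or 2), −0.46 for Tuba8 (without any of 8 libraries, namely control baseline replicates 1, 3 and 4, control bicuculline replicates 3 and 4, knockdown baseline replicates 1 and 4, and knockdown bicuculline replicate 2) and −0.50 for Tubg2 (without knockdown baseline replicate 4). Without TMM scaling Tubb3 (0.42) and Tubb5 (0.44), like Dcx in baseline (0.49) and Stmn1 (0.44) and Rock1 (0.43) with bicuculline, kept their direction but were no longer called. With bicuculline Tubg2 (−0.61) and Tubg1 (−0.58) were lower and 0 tubulins higher. In response to bicuculline Tubb3 fell by 0.77 in control cultures, and Tubb2b, Tubb3, Tubb5 and Tubg1 fell by 0.69, 1.12, 0.74 and 0.82 in knockdown cultures, where 13.2% of all genes were called lower. The median of the 14 tubulins was −0.26 in control and −0.35 in knockdown cultures, beside −0.40 and −0.87 for Tppp. Tuba1a was the highest of them, at 7570 TPM in control baseline, and was called in none of the 4 comparisons by edgeR.

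Since Tppp is abundant in oligodendrocytes, the lineage was measured in the same libraries. In bulk RNA, fewer cells of a type and less RNA per cell cannot be told apart. In all, 10 of 18 oligodendrocyte-lineage markers were high enough to test, and 0 were called on knockdown in either condition, with medians of 0.04 in both. Since 1.76% and 2% of all genes were called higher and 4.07% and 3.9% lower, a count of 0 of 10 is near the background. The summed level of the list had a median of 153 TPM in control baseline (102 to 196), 149 TPM in control with bicuculline (90.7 to 198), 149 TPM in knockdown baseline (95.9 to 193) and 150 TPM in knockdown with bicuculline (104 to 202). The transcription factor Olig1 supplied most of it, at 97.3 TPM in control baseline and 98.0 in knockdown baseline. Of its other members, Olig2 was at 17.4, Cnp at 15.0, Mog at 1.81, Mag at 0.294, Mobp at 0.282 and Sox10 at 0.006 TPM in control baseline. Mbp was at 14.3 TPM in control and 9.88 TPM in knockdown baseline cultures, with a log2 fold change of −0.43 in baseline and −0.49 with bicuculline, neither called, and with bicuculline it was called at −0.65 without control bicuculline replicate 1 and at −0.70 without knockdown bicuculline replicate 3. Tppp, at 86.8 TPM in control baseline, stood above Mbp and below Olig1 in the same libraries.

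The markers of other cell types stand beside the same shares of all genes, 1.76% and 2% called higher and 4.07% and 3.9% lower. Of these markers, 1 of 9 for astrocytes was called on knockdown in both conditions, S100b, higher by 0.82 and 0.84 but at 1.21 TPM in control baseline. Its call was lost in baseline without control replicate 1 (0.81) or 4 (0.80) or knockdown replicate 4 (0.77), and with bicuculline without control replicate 1 (0.71) or 3 (0.79) or knockdown replicate 2 (0.66), and in both on log2(TPM + 1) (0.43 and 0.43). The median of the astrocyte list was 0.41 in baseline and 0.42 with bicuculline, and its summed level was 264 to 431 TPM in control and 264 to 523 TPM in knockdown baseline libraries. Of 2 tested microglial markers Csf1r was lower, by −0.66 and −0.75, in a list whose summed level was 3.99 to 6.88 TPM in control and 1.84 to 4.55 TPM in knockdown baseline libraries. The baseline call of Csf1r was lost without control baseline replicate 1 (−0.46) or 3 (−0.70) or knockdown baseline replicate 3 (−0.61) or 4 (−0.53), and that with bicuculline without control replicate 4 (−0.56) or knockdown replicate 4 (−0.67). Neuronal markers, the 7 of which summed to 6008 to 6530 TPM in control and 6472 to 7096 TPM in knockdown baseline libraries, were not called on knockdown other than Tubb3 in baseline. Of 5 tested fibroblast and vessel markers 0 were called in baseline and Lum was called higher with bicuculline, at 0.67; that call was lost without control bicuculline replicate 1 (0.52), 3 (0.69) or 4 (0.70) or knockdown bicuculline replicate 2 (0.65) or 4 (0.53). The part of these markers in the levels of Gpd2 and Tppp was not tested.

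Both genes were then set beside their neighbours on the chromosome, taking the 3 nearest tested protein-coding genes on each side. On knockdown, 1 of the 12 neighbours was called. Of all genes, 4.07% in baseline and 3.9% with bicuculline were called lower, and 1.76% and 2% higher. Nkd2, a regulator of Wnt signalling 162 kb before Tppp, was lower by −1.16 in baseline (SE 0.14, adjusted p = 1.77e-05) and by −0.90 with bicuculline (SE 0.14, adjusted p = 0.000319), from a mean of 15.7 CPM in control baseline. The genes closest to Tppp, Brd9 at 48.5 kb and Cep72 at 0.747 kb, gave −0.01 and −0.13 in baseline and were not called, Cep72 at a level of only 1.01 CPM. The gene closest to Gpd2, Nr4a2, an orphan nuclear receptor induced by neuronal activity, gave 0.15 in baseline and was not called on knockdown. The loci also hold genes on the opposite strand that overlap them: A930012O16Rik and Gm13535 at Gpd2 and Gm6263 at Tppp. These were listed at 0 to 13, 0 to 2 and 0 to 3 estimated counts per library, against at least 800 for Gpd2 and 994 for Tppp. The RefSeq promoter windows of GRCm38.p6, which surround an annotated start, held 9 and 34 CG dinucleotides for the 2 starts of Gpd2 and 26 for Tppp, against a median of 7 over 32851 windows. DNA methylation was not measured in these libraries.

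The genes whose pattern was most like that of Gpd2 over the 16 libraries, by the Pearson correlation of log2 CPM, were Mbtps2 (r = 0.996), Itfg1 (0.994), Dnmt3a (0.992), Pdia3 (0.988) and Ahcy (0.988), out of 13879 genes whose mean reached 1 CPM. All 5 were lower after knockdown, by −0.90 to −2.81 in baseline. Among the genes most like Tppp were Acsl6 (0.986), Pigk (0.985), Cbx6 (0.984) and Dut (0.984), with knockdown differences from −0.51 to −0.78 in baseline. Gpd2 and Tppp correlated with each other at 0.948, and Tppp with Dnmt3a at 0.912. The 16 points share 4 groups, so these coefficients mainly restate the group means and carry no test. Of the 9 genes named, 7 have the 7 shared bases GAAAGGA in the annotated 3′ UTR, Pdia3 and Pigk being without them. The 7 include Dnmt3a, the targeted gene. All 9 genes were chosen by their pattern, so this count is no test. Of the tested protein-coding genes with an annotated 3′ UTR, with Gpd2, Tppp and Dnmt3a left out, 19.9% have these bases there.

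The shared bases in Gpd2 and Tppp were then set against other protein-coding genes. Each of the 19 words of 7 bases in the target was looked for in the sense strand of the 3′ UTRs of 14390 tested protein-coding genes. Overlapping words share genes, and 1 gene can hold several words. GAAAGGA, which starts at base 13 of the target, was present in 2864 genes. Of these genes 9.74% were called lower on knockdown in baseline and 8.90% with bicuculline, against 4.24% and 4.09% of all genes scanned, and their median log2 fold changes were −0.06 and −0.06 against 0.01 and −0.01. It ranked number 1 of the 19 words by the share called lower and by the median in both conditions. The word that starts 1 base later, AAAGGAA, reached 7.80% and 6.79% of 3963 genes. The next word, AAGGAAG at base 15, reached 5.78% and 5.31% of 3389 genes. The 3′ UTRs of Gpd2 and Tppp hold these words as well as GAAAGGA. Among the rarer words GATCGAA, at base 9, reached 9.32% in baseline and 6.21% with bicuculline, with only 161 genes. The 10-base stretch that Gpd2 carries in its coding sequence, and not in its 3′ UTR, was found in the 3′ UTR of 171 genes. Of these, 23 (13.5%) in baseline and 26 (15.2%) with bicuculline were called lower. In any part of the transcript it was found in 285 genes, which include the 171, and 25 (8.77%) and 29 (10.2%) were called lower. Nearly all of the genes called lower thus held the stretch in the 3′ UTR, unlike Gpd2. Genes that held it only elsewhere were not counted separately. Genes with the word had longer 3′ UTRs, with a median of 2579.5 bases against 1231 over all genes, and the medians for the 19 words were between 2366 and 2904 bases. The part of 3′ UTR length in these shares was not tested. The 3′ UTRs of Gpd2 and Tppp are 3242 and 4338 bases long. Gpd2, Tppp and Dnmt3a were left out of the genes counted. The scan was still made with the low levels of Gpd2 and Tppp known, and whether the hairpin acts through these bases was not tested.

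**Figure D5:**
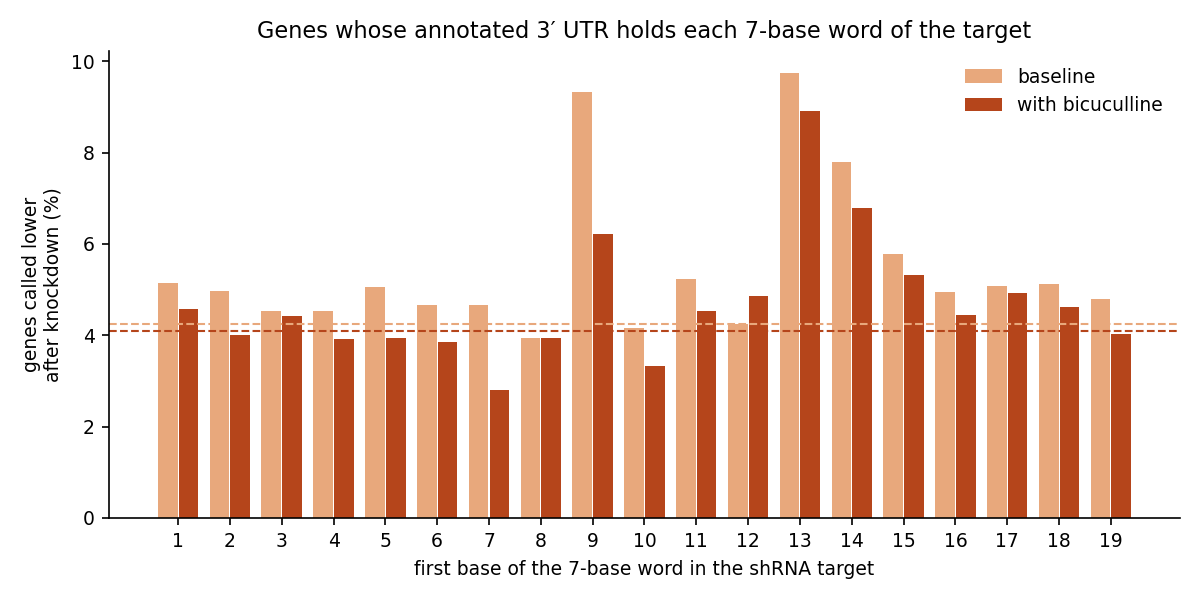
Share of genes called lower after knockdown (y axis, percent) among genes whose annotated 3′ UTR holds each of the 19 words of 7 bases in the target (x axis, first base of the word counted from 1 at the 5′ end). Bars are baseline and bicuculline and dashed lines are the shares over all 14390 genes, 4.24% and 4.09%. The words at bases 13, 14 and 15 are present in the 3′ UTRs of Gpd2 and Tppp. That at base 13 reaches 9.74% and 8.90%, and that at base 15 reaches 5.78% and 5.31%.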

How the data were processed

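RNA of 16 cultures was sequenced as 100 bp paired-end reads. Per the labels, the submitters' processing notes name Trim Galore 0.6.4, kallisto 0.4.6 and genome build GRCm38.p6. The authors deposited, for each library, estimated counts per gene, not scaled for depth or length, and TPM values, scaled for transcript length and library total. Of 55385 Ensembl identifiers, 55144 matched GENCODE release M21 without their version, and symbols, coordinates and transcripts were taken from it.

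The estimated counts were rounded and tested with edgeR 4.0.16 (R 4.3.3; TMM, filterByExpr, quasi-likelihood test, 1 fit of 4 groups, Benjamini-Hochberg over 17222 genes). A call required a log2 fold change beyond 0.5 in either direction and an adjusted p below 0.05, the study's thresholds, and for the interaction the adjusted p alone. Exact permutation tests used log2 CPM. Alternatives were voom with limma 3.58.1, DESeq2 1.42.0, other scalings and filters, limma on log2(TPM + 1) and log2(TPM + 0.1), a replicate block, and each library left out. The edgeR step was tested on simulated data.

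Named genes are Gpd2, Tppp, Dnmt3a, called or highest members of 8 pathway and 5 marker lists, 3 neighbours on each side, the 5 most similar genes and the next in rank; Sox10, paralogs, other markers and shuttle partners were named as background after their values were seen. Some genes that this rule names are not reported here. The members and lists were chosen with earlier results of these data known. No 2 libraries of a group agreed within sampling noise (chi-square over its degrees of freedom, 7.88 to 44.5). The preparations are separate cultures. Same-numbered libraries deviated together, with correlations across genes of 0.142 to 0.221 and 0.204 to 0.355 in the control bicuculline and baseline knockdown comparisons and of 0.0631 to 0.337 and 0.0667 to 0.388 in the knockdown bicuculline comparison and the knockdown comparison with bicuculline, where number 4 stayed under 0.1. Correlations between libraries of different numbers were not calculated, so these values do not settle whether the number pairs libraries. The main fit and the permutation tests did not use the number. The shRNA target was located in the Dnmt3a-201 transcript, and matches of at least 7 bases in the sense strand were listed.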

Additional observations from a re-analysis of the deposited data

How the results depend on the processing

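The knockdown differences of Gpd2 and Tppp and their interaction kept their direction under every alternative run. Without TMM scaling the baseline difference of Gpd2 was −1.85, and in limma on log2(TPM + 0.1) it was −1.86, against −1.77. Leaving out single libraries gave −1.81 to −1.72 for it, −1.94 to −1.90 with bicuculline, and −1.50 to −1.29 and −1.91 to −1.83 for Tppp. The interaction of Tppp ranged from −0.57 to −0.37 without single libraries and from −0.47 to −0.35 over other alternatives.

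The bicuculline response of Tppp in control cultures was called at −0.56 without TMM scaling, at −0.64 in limma on log2(TPM + 1) and at −0.65 on log2(TPM + 0.1), where the median of all genes moved to −0.15, −0.14 and −0.19. The same scalings raised the share of lower genes among all called genes from 69.8% to 85.8%, 90.9% and 90.0% on knockdown in baseline. With the replicate number as a block, calls for Gpd2 and Tppp did not change, and the interaction of Tppp was −0.46 (SE 0.08).

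Of 84 pathway genes tested, 7 were called in the bicuculline comparison of control cultures, and 15, 17 and 19 with library sizes only and on the 2 TPM scales. On knockdown in baseline 7 were called, and 4, 3 and 2 under those settings; without single libraries the count was 3 to 9, with 3 without knockdown baseline replicate 1 and 4 without replicate 4. Adjusted p alone gave 38 and 41 genes for the bicuculline comparisons in control and knockdown cultures, and 24 and 21 on knockdown in baseline and with bicuculline. Of the oligodendrocyte markers 0 were called on knockdown with bicuculline, and 1 with no filter (Enpp6, 4.20), without control bicuculline replicate 1 or without knockdown bicuculline replicate 3 (Mbp in both). Causes of these changes were not tested. For single named genes other than Gpd2 and Tppp, 57 values lost their call and 428 kept it over alternatives other than leaving out a library. The depth, 28912697 counts or more per library, was not limiting for Gpd2 and Tppp, while genes under 1 TPM rest on few counts.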

Other observations

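Among the 26 tested markers of cell types other than neurons, 2 were called higher (Sox9 and Col1a2) and 1 lower (Mog) with bicuculline in control cultures, below the 10.8% and 11.1% of all genes. Col1a2, a fibrillar collagen chain, was at 0.55, and its call was lost without control baseline replicates 1, 2 or 4, control bicuculline replicates 2, 3 or 4, knockdown baseline replicate 4, or knockdown bicuculline replicates 1, 2 or 4 (0.32 to 0.59). Sox9, a transcription factor of astrocytes, rose by 1.09 in control and 1.08 in knockdown cultures on the log2 scale (edgeR calls). Mog, a myelin protein, fell by 0.83 and 0.79 from a level of 1.81 TPM in control baseline; the call in knockdown cultures was lost without knockdown baseline replicate 4 (−0.51). Around the 2 loci, Nr4a2, the gene before Gpd2, rose by 3.80 in control and 3.95 in knockdown cultures, from a mean of 63.0 to 877 CPM in control and from 70.2 to 1086 CPM in knockdown cultures. Nkd2, near Tppp, fell by 0.75 in control cultures and gave −0.49 in knockdown cultures, under the size required for a call.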
